A study of Rattus norvegicus with 6 samples.

Results

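Nuclear receptors are transcription factors that bind lipids, bile acids, steroids or foreign chemicals and switch genes on or off when they do. Hepatocytes carry a characteristic set of them, and 10 were examined here at the level of their own RNA in rat liver: the chemical sensors PXR (Nr1i2) and CAR (Nr1i3), the sterol sensor LXR alpha (Nr1h3), the bile acid receptor FXR (Nr1h4) with its partners SHP (Nr0b2) and LRH-1 (Nr5a2), the liver identity factor HNF4 alpha (Hnf4a), the fatty acid sensor PPAR alpha (Ppara), the shared partner RXR alpha (Rxra) and the glucocorticoid receptor (Nr3c1). They were listed by name, by a rule that uses no measured value but with earlier results of these data known, and every array probe whose RefSeq accession belonged to one of them was taken. This gave 24 probes of 61537 on the array and 10 genes of 15645 that could be named.

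The study measured liver RNA of 6 male Sprague-Dawley rats (Crl:CD(SD)), bought at 5 weeks of age, on single-colour Agilent arrays, with a separate array for each animal. Corn oil was given to the vehicle group (n = 3). The other group (n = 3) received TBBC, the 4,4'-linked isomer of thiobis(6-tert-butyl-m-cresol), a phenolic antioxidant, at a daily dose of 300 mg/kg. The sources disagree on when the livers were taken, with 28 days in the series text and 9 weeks in the treatment protocol. Neither group carried any other treatment or allele in the labels.

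CAR and PXR heterodimerise with RXR alpha and switch on cytochromes P450, conjugating enzymes and efflux pumps. CAR is held in the cytosol by a chaperone complex and enters the nucleus on activation, whereas PXR is activated by binding the chemical, and both steps act on protein that is already present. FXR, when it binds bile acids, switches on SHP, a receptor without a DNA-binding domain that silences LRH-1 and HNF4 alpha on the promoter of Cyp7a1, the rate-limiting enzyme of bile acid synthesis. The comparison of TBBC with vehicle asked whether the RNA of these receptors differs when that of their target genes does.

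Values below are log2 of the background-corrected spot signal minus the 75th percentile of the same array, so a value of 0 is that percentile and a difference of 1 is a change of 2-fold. Signals of different genes come from different probes and are not ordered against each other. Differences are TBBC minus vehicle with the moderated standard error of limma (SE), and p-values are Benjamini-Hochberg adjusted over all 29326 features tested, with a threshold of 0.05. Since the labels speak of separate animals, each p-value is set against animal-to-animal spread within the groups. All vehicle arrays were on 1 slide and scan and all TBBC arrays on another, so slide, scan and group cannot be told apart. The 75th percentile of the signal was 465.2 to 598.1 on vehicle arrays and 616.1 to 638.2 on TBBC arrays, so the value subtracted was higher on every TBBC array. On each array 36919 to 39386 probes were well above background. Vehicle replicate 2 had the lowest percentile (465.2) and the widest spread of spike-in signals (9.11%, where the rest had 3.01% to 4.11%). Precision is limited by there being 6 arrays.

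No receptor transcript passed the test in either direction, while 21 of 37 tested genes listed as targets of CAR and PXR rose. All 10 receptors were tested, and all 24 of their probes were well above background on all 6 arrays. Of the 29326 features, 3.08% passed the test (1.68% higher and 1.4% lower), and of those with a gene name 3.17% did. At an unadjusted p under 0.05, 2 of the 10 receptors were past it, against 22.9% of all features. The TBBC and vehicle values did not overlap for these 2, Nr1h4 and Nr0b2, both lower with TBBC, whereas 31.1% of all features did not overlap (12.3% higher and 18.8% lower). A share of 2 in 10 is near these backgrounds. With any 1 array left out 120 to 358 features passed where 902 did with all 6, so the counts of target genes given below also fall, and 0 receptors passed in any of these fits.

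The median difference of the 10 receptors was -0.23, beside -0.06 for all features, and 8 were negative and 2 positive. That split depended on the scaling: with median centring 6 were negative, and with arrays scaled on their spike-in spots 5 were, the median of all features then being 0.16. Set against the all-feature median, 6 receptors lay below it and 4 above it. These 3 scalings shift all features alike, so this count cannot differ between them. With quantile normalization 7 lay below and 3 above, and with the mean of a gene's probes 5 lay below and 5 above. The 95% interval of the difference stayed within 2-fold in either direction for 7 of the 10, the exceptions being Nr1h4, Nr0b2 and Ppara.

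**Figure D1:**
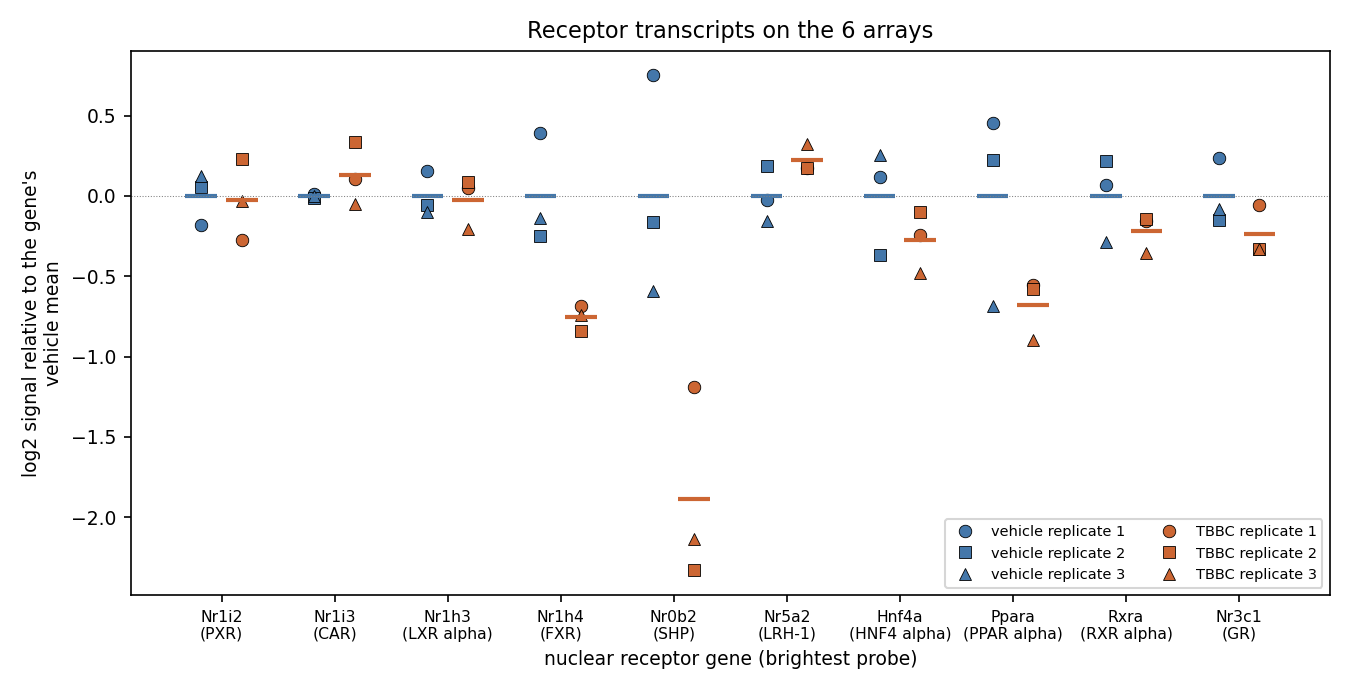
Log2 signal of each receptor gene on each of the 6 arrays, taken relative to that gene's own vehicle mean. Each point is 1 animal (blue vehicle, orange TBBC, with the marker shape giving the replicate number, which does not pair animals) and the bars are group means. The groups separate for Nr1h4 and Nr0b2 alone, and none of the 10 passed the test.

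The tissue label was checked against cell markers, beside the 3.08% of all features that passed the test. All 8 hepatocyte markers, among them Alb and Ttr, were measured on every array. Their summed signal, in multiples of the array's 75th percentile, was 5283 to 6252 on vehicle arrays and 4667 to 4725 on TBBC arrays, and 1 of the 8 fell: Ahsg, the plasma glycoprotein fetuin-A, by 0.83 ± 0.13 on the log2 scale (adjusted p = 0.0292). Of 12 Kupffer and other myeloid markers 0 passed, with summed signals of 118.1 to 232.2 on vehicle and 128.9 to 246.8 on TBBC arrays. Of 6 endothelial markers tested of 10 listed, 0 passed (30.96 to 59.21 and 41.49 to 47.69). Of 10 stellate cell markers 1 fell, Pdgfrb, a growth factor receptor, at -0.73 ± 0.14 (adjusted p = 0.0461), with sums of 28.22 to 38.09 and 27.1 to 35.27. Of 6 biliary markers tested of 8 listed, 1 rose: Epcam, an adhesion molecule of the bile duct epithelium, at 1.83 ± 0.21 (adjusted p = 0.0147). The biliary sum was 1.673 to 1.843 on vehicle and 3.184 to 4.605 on TBBC arrays, with Krt7 and Cftr not above background on some arrays. Of 9 lymphocyte markers tested of 12 listed, 0 passed, and the sums were 4.029 to 4.612 and 2.691 to 4.29. Cd3e and Cd2 were not above background on all arrays of either group. The call of Epcam was lost without vehicle replicate 1 (adjusted p = 0.063) and that of Pdgfrb without any 1 of the arrays. The part of these shifts in the receptor values was not tested. In a bulk sample, fewer cells of a type and less RNA per cell cannot be told apart.

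CAR and PXR, the sensors of foreign chemicals, had RNA levels in the TBBC livers close to those of the vehicle livers. The signal of Nr1i3, which encodes CAR, was 3.30, 3.27 and 3.28 in vehicle replicates 1 to 3 and 3.39, 3.62 and 3.24 in TBBC replicates 1 to 3. The vehicle animals lay within a narrow band, and the TBBC animals lay on both sides of it. The difference was 0.13 ± 0.13 (95% interval -0.18 to 0.44, adjusted p = 0.566). For Nr1i2, which encodes PXR, the vehicle values were 5.74, 5.97 and 6.04 and the TBBC values 5.64, 6.15 and 5.89. Here the groups overlapped throughout. The difference was -0.03 ± 0.16 (95% interval -0.42 to 0.37, adjusted p = 0.936), and its sign turned with median centring and with spike-in scaling. On these probes the upper bounds of the intervals were 1.36-fold for CAR RNA and 1.29-fold for PXR RNA, and over all their probes the highest upper bounds were 1.64-fold and 1.52-fold.

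Both genes had further probes, none of which passed on its own. The 4 probes of Nr1i3 all gave positive differences, from 0.13 to 0.35. On its probe of rank 3 by brightness the groups did not overlap, with 1.46, 1.64 and 1.52 in vehicle and 1.85, 1.97 and 1.70 in TBBC livers, and the difference was 0.30 ± 0.12 (adjusted p = 0.202 over all probes). The second probe of Nr1i2 gave 0.18, opposite in sign to the brightest one. Of all 24 receptor probes, 0 passed, against 3.22% of all probes. At an unadjusted p under 0.05, 7 of the 24 were past it, against 23.1%. The groups did not overlap on 7 of the 24 (5 lower and 2 higher with TBBC), against 31.3% of all probes with a gene name (15% lower and 16.3% higher).

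**Figure D2:**
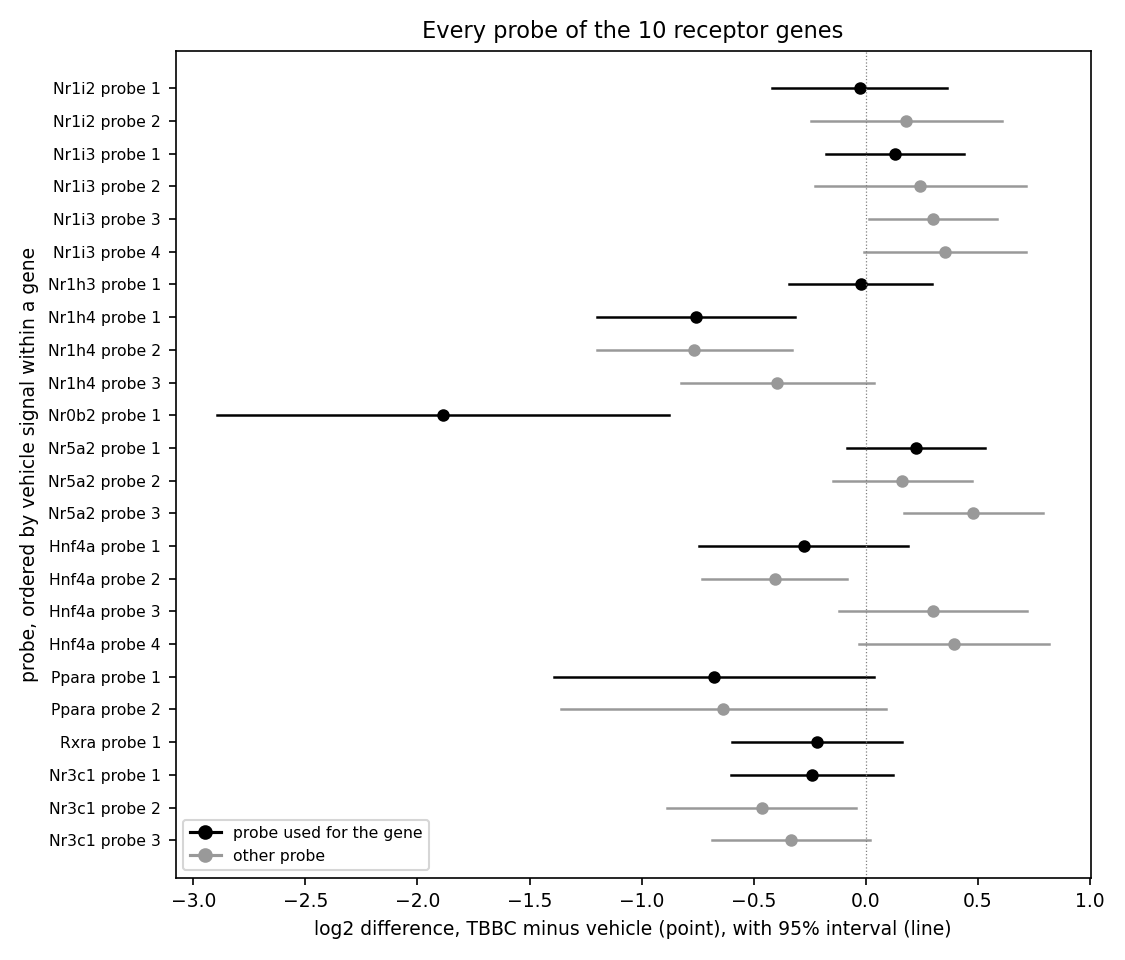
Log2 difference between TBBC and vehicle arrays (n = 3 per group) for every probe of the 10 receptor genes, with its 95% interval. Black marks the probe with the highest mean signal, which stands for the gene, and grey the other probes. The probes of Nr1h4 and Ppara all lie left of 0 and those of Nr1i3 and Nr5a2 right of it, while the 4 probes of Hnf4a divide into a lower and a higher pair.

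Many genes listed as targets of CAR and PXR rose, and which factor raised them was not tested. Of 39 listed genes 37 were tested. In this list 21 rose, 1 fell and 15 were short of the threshold, and the median difference was 1.28 beside -0.06 for all features. Cyp2c24, a cytochrome P450 of the Cyp2c subfamily, rose by 8.08 ± 0.77 (adjusted p = 0.00895). Without TBBC replicate 2 it was 7.83 and did not pass (adjusted p = 0.0523). Abcc3, a pump that moves glucuronides from hepatocytes into blood, rose by 4.96 ± 0.21 (adjusted p = 0.000841), and Gstm3, a glutathione transferase, by 4.69 ± 0.25 (adjusted p = 0.00133). Cyp2b1, the classical CAR target of rat liver, measured 4.23, 3.94 and 3.73 in vehicle and 8.17, 8.84 and 8.78 in TBBC livers, a rise of 4.63 ± 0.22 (24.7-fold, adjusted p = 0.00116). Its 95% interval was 4.09 to 5.16, and that of Nr1i3 was -0.18 to 0.44. Cyp2b1 was named for the size of its change, so the gap between these intervals follows from that choice. The 1 member that fell was Cyp2b3, a cytochrome with little response to inducers, at -0.56 ± 0.10 (adjusted p = 0.0470), named here after its value was seen; with median centring or spike-in scaling 22 rose and 0 fell. With 1 array left out 12 to 17 of the 37 passed, with 12 without TBBC replicate 2 and 14 without vehicle replicate 1 or vehicle replicate 2. Probes of Cyp2b and Cyp2c genes can bind RNA of close relatives, so single members are uncertain.

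**Figure D3:**
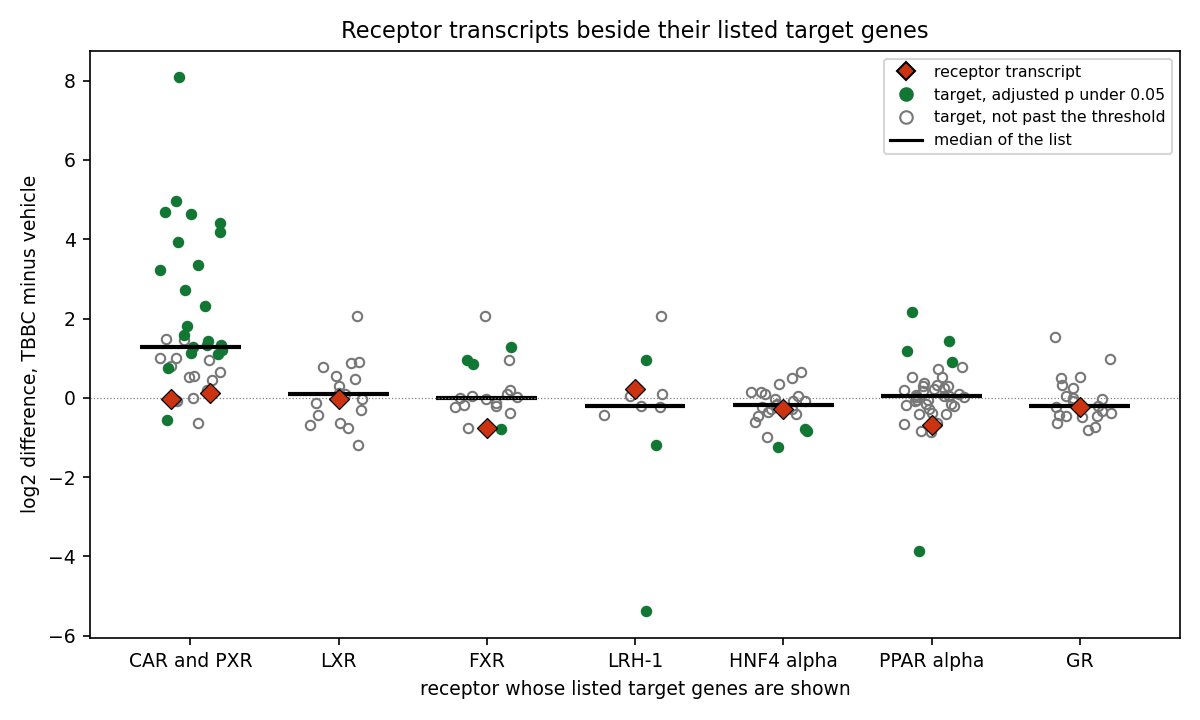
Log2 differences (TBBC minus vehicle, n = 3 per group) of the receptor transcripts (red diamonds) beside those of the target genes listed for each receptor (circles, filled where the adjusted p was under 0.05), with the list's median as a black bar. In the first column, where the left diamond is PXR and the right one CAR, the receptors lie near 0 and 21 of 37 targets rose, whereas the medians of the other lists lie between -0.21 and 0.09.

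Transcripts of the proteins that hold CAR in the cytosol or release it were also measured. This group of 12 genes holds the Hsp90 chaperones, the phosphatase PP2A and the epidermal growth factor receptor. Of the 12, 0 passed the test, where 3.08% of all features did, and the median difference was 0.15. Hsp90ab1, the constitutive cytosolic Hsp90, differed by 0.28 ± 0.18 (adjusted p = 0.381). Hsp90aa1, the inducible form, measured 6.27, 6.30 and 6.24 in vehicle and 7.35, 7.22 and 6.62 in TBBC livers. Those groups did not overlap, and the difference of 0.79 ± 0.20 did not pass (adjusted p = 0.0888). Without TBBC replicate 3 its difference was 1.01 and it passed (adjusted p = 0.04).

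The largest receptor differences were in the bile acid circuit, where SHP and FXR were lower in every TBBC liver than in any vehicle liver without passing the test. The signal of Nr0b2, which encodes SHP, was 6.80, 5.89 and 5.47 in vehicle replicates 1 to 3 and 4.87, 3.72 and 3.92 in TBBC replicates 1 to 3. Each group spanned over 1 log2 unit, so animals of a group differed by more than 2-fold. The difference was -1.89 ± 0.42, a level 3.69-fold lower with TBBC (95% interval of the log2 difference -2.90 to -0.87, adjusted p = 0.0705; exact two-sided permutation p = 0.1, the smallest that 3 against 3 allows). Only 1 probe measured it. Leaving out 1 array at a time gave -2.23 to -1.51, the weakest without vehicle replicate 1. Measured from the all-feature median the difference was -1.82.

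For Nr1h4, which encodes FXR, the vehicle values were 5.60, 4.96 and 5.07 and the TBBC values 4.53, 4.37 and 4.47. Vehicle replicate 1 stood above the other vehicle livers, as it did for Nr0b2, and the TBBC livers lay close together. The difference was -0.76 ± 0.19, or 1.69-fold lower (95% interval -1.20 to -0.31, adjusted p = 0.0855; exact two-sided permutation p = 0.1, the smallest possible). Its 3 probes gave -0.76, -0.76 and -0.39, and the groups separated on the brighter 2. Without vehicle replicate 1 the difference was -0.56. Whether they passed depended on the processing: with normexp background correction on median spot signals, run together with quantile normalization, the adjusted p was 0.0252 for Nr1h4 and 0.046 for Nr0b2, and with array weights it was 0.0441 for Nr0b2.

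LRH-1, the activator that SHP silences, was near its vehicle level. Nr5a2 measured 1.14, 1.35 and 1.00 in vehicle and 1.34, 1.33 and 1.49 in TBBC livers. Vehicle replicate 2 lay among the TBBC values and the other vehicle livers below them. The difference was 0.22 ± 0.13 (95% interval -0.08 to 0.53, adjusted p = 0.339), and the other 2 probes gave 0.16 and 0.48. On the dimmest probe the groups separated, with 0.91, 0.84 and 0.71 in vehicle against 1.15, 1.27 and 1.48 in TBBC livers (adjusted p = 0.0993 over all probes).

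Because SHP transcription is driven by LRH-1 as well as FXR, the promoter letters of Nr0b2 and Nr5a2 were searched for TCAAGG, the first letters of the LRH-1 binding site, for AGGTCA, the core letters most nuclear receptors bind, and for TATAAA, the TATA box, on both strands. The 250 bases before the annotated start are shown from RefSeq, build GRCr8, 5′ to 3′ on the gene's strand, with matches in capitals. The Nr0b2 window is chr5:151062910-151063159 (plus strand) and the Nr5a2 window chr13:50984939-50985188 (minus strand).
Nr0b2: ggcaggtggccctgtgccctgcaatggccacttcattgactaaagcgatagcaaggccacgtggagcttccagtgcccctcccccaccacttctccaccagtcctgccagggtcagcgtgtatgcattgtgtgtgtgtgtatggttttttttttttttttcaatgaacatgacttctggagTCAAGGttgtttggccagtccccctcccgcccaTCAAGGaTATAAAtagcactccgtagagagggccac
Nr5a2: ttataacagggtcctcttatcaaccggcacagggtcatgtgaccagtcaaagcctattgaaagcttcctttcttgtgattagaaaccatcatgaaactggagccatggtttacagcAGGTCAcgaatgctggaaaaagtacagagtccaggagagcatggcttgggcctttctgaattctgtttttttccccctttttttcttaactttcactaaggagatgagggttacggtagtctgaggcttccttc
In Nr0b2, TCAAGG began 69 and 36 bases before the start and TATAAA 29 bases before it. In Nr5a2, AGGTCA began 134 bases before the start. These letters are common: of 33469 promoter windows of the same length, 12.6% held TCAAGG, 14.1% AGGTCA and 12.9% TATAAA, so a match is a description of the sequence and not a binding site. The table held windows for 9 of the 10 receptors (11 windows), and in the other 9 windows none of these 3 strings occurred.

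The targets of FXR divided. Of 21 listed genes 18 were tested, of which 3 rose, 1 fell and 14 stayed short of the threshold. Over all features 3.08% passed. The median difference of the 18 was 0.01, beside -0.06 for all features. The list mixes genes that FXR induces with genes repressed through SHP, such as Cyp7a1. Its median therefore pools opposite expected directions and does not sum up FXR output. Slc27a5, the enzyme that activates bile acids for conjugation, rose by 1.29 ± 0.15 (2.45-fold, adjusted p = 0.0176). Abcb11, the bile salt export pump, measured 4.06, 4.04 and 3.85 in vehicle and 4.74, 4.76 and 5.31 in TBBC livers, a rise of 0.95 ± 0.18 (adjusted p = 0.0483). Sdc1, the cell-surface proteoglycan syndecan-1, rose by 0.86 ± 0.11 (adjusted p = 0.0217). Apoc2, the cofactor of lipoprotein lipase, fell by 0.79 ± 0.11 on the log2 scale (adjusted p = 0.0235). FXR is known to induce all 4, and Nr1h4 itself was not higher on any TBBC array than on a vehicle array. Without vehicle replicate 1, vehicle replicate 2, TBBC replicate 2 or TBBC replicate 3, 0 of the 18 passed, and without either remaining array 1 did.

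Cyp7a1, which SHP represses, was named after its values were seen. It measured -0.48, -0.50 and 0.72 in vehicle and 0.45, 2.15 and 3.29 in TBBC livers. TBBC replicate 1 lay within the vehicle range and the other TBBC livers above it. The difference was 2.05 ± 0.72 (95% interval 0.32 to 3.78, adjusted p = 0.167) and did not pass. Cyp8b1, the 12-alpha-hydroxylase, differed by 0.04 ± 0.51 (adjusted p = 0.967).

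**Figure D4:**
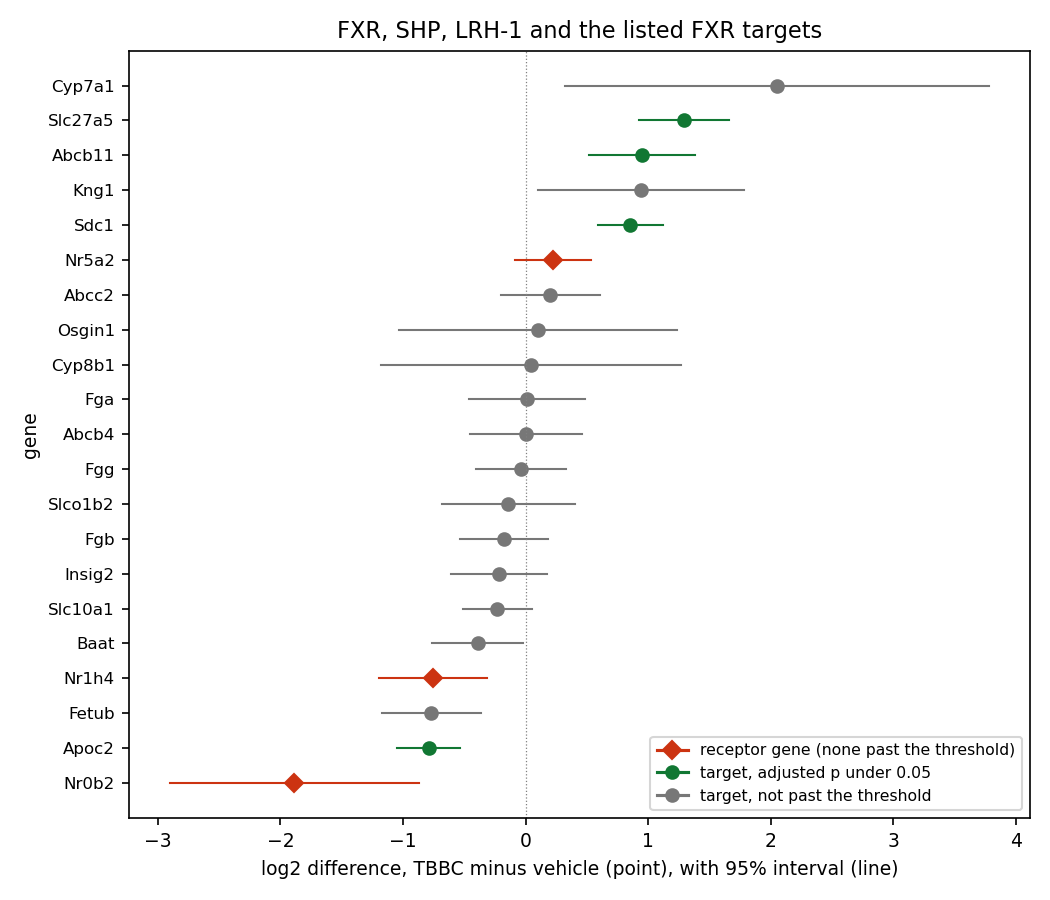
Log2 differences (TBBC minus vehicle, n = 3 per group) with 95% intervals for FXR (Nr1h4), SHP (Nr0b2) and LRH-1 (Nr5a2), drawn as red diamonds, and for the 18 tested FXR target genes, with those past the threshold in green. Nr0b2 has the lowest value of the set at -1.89 and Cyp7a1 the highest at 2.05, and neither passed the test.

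Of the 11 genes listed as targets of LRH-1, 9 were tested, of which 1 rose, 2 fell and 6 stayed short of the threshold. Over all features 3.08% passed. The median of the list was -0.20, beside -0.06 for all features, and with spike-in scaling it was 0.02, beside 0.16. The riser was Abcb11, which is also on the FXR list. Dio1, the deiodinase that makes active thyroid hormone, measured 4.53, 4.35 and 3.82 in vehicle and 3.09, 3.29 and 2.75 in TBBC livers. It fell by 1.19 ± 0.23 on the log2 scale (adjusted p = 0.0477). The list overlapped the FXR list in further genes, among them Cyp7a1 and Cyp8b1, so the counts of the lists are not separate evidence. Leaving out 1 array at a time left 0 to 2 of the 9 past the threshold, with 0 without any 1 of the TBBC replicates.

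The 3 named genes whose pattern over the 6 arrays lay nearest to that of Nr0b2, each gene taken relative to its own vehicle mean, were Mthfd2, Abhd8 and Myorg. The measure was the root mean square difference, over 10778 genes above background on all arrays. For Mthfd2, a mitochondrial enzyme of folate metabolism, it was 0.286 log2 units, and the gene differed by -1.95 ± 0.41 (adjusted p = 0.0601), short of the threshold like Nr0b2. Abhd8 lay 0.318 away and fell by 1.74 ± 0.23 on the log2 scale (adjusted p = 0.0235), and Myorg lay 0.318 away and fell by 1.81 ± 0.28 (adjusted p = 0.032), though the mean of its probes gave -0.60 and did not pass. The likeness is a description over 6 samples that share the group difference.

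LXR alpha, the sensor of oxidised cholesterol, overlapped fully between the groups. Nr1h3 measured 5.62, 5.41 and 5.37 in vehicle and 5.51, 5.55 and 5.26 in TBBC livers. The highest value was a vehicle liver and the lowest a TBBC liver, with all others between. The difference was -0.02 ± 0.13 (95% interval -0.34 to 0.30, adjusted p = 0.933), with a sign that turned under median centring and spike-in scaling. Of its 20 listed targets 17 were tested and 0 passed, where 3.08% of all features did, with a median of 0.09. The list holds Cyp7a1, which LXR induces in rodents. Apoe, the lipoprotein ligand, differed by -0.14 ± 0.12 (adjusted p = 0.504) and was positive with spike-in scaling, and Smpdl3a, a phosphodiesterase, differed by 0.87 ± 0.27 (adjusted p = 0.136).

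PPAR alpha, which turns on fatty acid oxidation in fasting, had a wide spread between animals. Ppara measured 1.47, 1.23 and 0.33 in vehicle and 0.46, 0.43 and 0.11 in TBBC livers. Vehicle replicate 3 fell among the TBBC livers, and the other vehicle livers lay above all of them. The difference was -0.68 ± 0.30 (95% interval -1.39 to 0.04, adjusted p = 0.239), and the second probe gave -0.64. It rested on single vehicle livers, with -1.02 (adjusted p = 0.0663) without vehicle replicate 3 and -0.45 without vehicle replicate 1.

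All 38 listed PPAR alpha targets were tested, of which 4 rose, 1 fell and 33 stayed short of the threshold. Over all features 3.08% passed. The median of the list was 0.05, beside -0.06 for all features. Fgf21, the fasting hormone secreted by the liver, measured 2.44, 1.50 and 3.11 in vehicle and -0.79, -1.60 and -2.11 in TBBC livers. It fell by 3.85 ± 0.48 on the log2 scale, 14.5-fold lower (adjusted p = 0.0193). Cd36, a fatty acid uptake receptor, rose by 2.15 ± 0.27 (adjusted p = 0.0197). The peroxisomal enzymes of fatty acid oxidation Ehhadh and Acaa1b rose by 1.44 ± 0.27 (adjusted p = 0.0477) and 1.18 ± 0.17 (adjusted p = 0.0282). The carnitine transferase gene Cpt1a, named after its value was seen, differed by -0.83 ± 0.44 (adjusted p = 0.305). Without vehicle replicate 1 or without TBBC replicate 3, 0 of the 38 passed, and without any other 1 array 1 or 2 did.

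HNF4 alpha binds DNA without needing an added ligand and sustains the expression of plasma proteins and apolipoproteins. On its brightest probe Hnf4a measured 3.91, 3.42 and 4.05 in vehicle and 3.54, 3.69 and 3.31 in TBBC livers. Vehicle replicate 2 lay within the TBBC range and the other vehicle livers above it. The difference was -0.28 ± 0.20 (95% interval -0.74 to 0.19, adjusted p = 0.425).

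The 4 probes of Hnf4a did not move together. The brighter 2 gave -0.28 and -0.41 and the dimmer 2 gave 0.30 and 0.40, and the mean of the 4 was 0.00. The second brightest probe separated the groups, with 0.62, 0.66 and 0.64 in vehicle and 0.21, 0.46 and 0.03 in TBBC livers (adjusted p = 0.149 over all probes). Within an array, the log2 ratio of the second brightest to the dimmest probe was 1.30, 1.28 and 0.73 in vehicle and 0.25, 0.46 and 0.18 in TBBC livers. This ratio needs no scaling between arrays. It was lower in every TBBC liver, by 0.80 on average, and it restates the opposite signs of the probes, for which it was chosen. The groups did not overlap in 5 of the 6 ratios between Hnf4a probes and in 4 of the 17 ratios between probes of the other receptors, against 25.9% of all ratios between probes of a named gene. The 6 Hnf4a ratios are pairs of the same 4 probes and are not independent. Their count largely restates the opposite signs for which the gene was singled out, so it is not separate evidence. The probes carry accessions of different transcripts of the gene, with probes 1 and 4 on one and probes 2 and 3 on the other, so the split did not follow the accession. Which stretch of the transcript each probe reads was not analysed here.

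Hnf4a is known to be transcribed from a pair of promoters, and the RefSeq table held a window for each. They lie at chr3:172605970-172606219 and chr3:172641586-172641835 (GRCr8, plus strand), and are shown because the probes of the gene disagreed. Neither held any of the 3 strings above, so no letters are in capitals.
Hnf4a, first window: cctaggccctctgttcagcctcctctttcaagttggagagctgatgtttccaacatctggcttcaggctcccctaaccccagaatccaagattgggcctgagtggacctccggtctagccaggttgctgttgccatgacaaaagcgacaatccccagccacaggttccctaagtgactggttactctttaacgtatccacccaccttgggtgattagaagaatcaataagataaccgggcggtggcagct
Hnf4a, second window: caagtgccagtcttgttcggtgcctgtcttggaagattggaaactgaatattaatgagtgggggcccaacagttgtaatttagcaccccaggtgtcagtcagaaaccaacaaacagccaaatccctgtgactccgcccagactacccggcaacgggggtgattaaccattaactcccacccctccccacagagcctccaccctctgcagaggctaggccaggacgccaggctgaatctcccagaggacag

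Of 24 listed HNF4 alpha targets 23 were tested, of which 0 rose, 3 fell and 20 stayed short of the threshold. Over all features 3.08% passed (1.4% lower). The median of the list was -0.18, beside -0.06 for all features, and with spike-in scaling it was 0.04, beside 0.16. Pklr, the liver pyruvate kinase, measured 3.02, 2.92 and 2.80 in vehicle and 1.62, 1.94 and 1.45 in TBBC livers. It fell by 1.24 ± 0.16 on the log2 scale (adjusted p = 0.0195). The other 2 were Ahsg, given above among the hepatocyte markers, and Apoc2, which is shared with the FXR list. Without vehicle replicate 1, vehicle replicate 2 or TBBC replicate 1, 0 of the 23 passed. Of the 8 hepatocyte markers, whose sum was lower on the TBBC arrays, 6 are also on this list, so the sum is not separate evidence, and its part in these falls was not tested.

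The glucocorticoid receptor, which carries the cortisol and corticosterone signal, overlapped between the groups on its brightest probe. Nr3c1 measured 1.80, 1.42 and 1.48 in vehicle and 1.51, 1.23 and 1.24 in TBBC livers. TBBC replicate 1 lay within the vehicle range, and the other TBBC livers lay below it. The difference was -0.24 ± 0.15 (95% interval -0.60 to 0.12, adjusted p = 0.376), and the other 2 probes gave -0.46 and -0.33. On the dimmest probe the groups separated by a narrow margin (adjusted p = 0.234 over all probes). That probe measured -1.86, -1.86 and -1.97 in vehicle and -1.98, -2.26 and -2.45 in TBBC livers. All 21 listed targets were tested and 0 passed, where 3.08% of all features did, with a median of -0.21 (0.01 with spike-in scaling). The metallothioneins Mt1 and Mt2A, small metal-binding proteins, differed by 0.05 ± 0.12 (adjusted p = 0.82) and -0.04 ± 0.11 (adjusted p = 0.855), and the sign of Mt2A turned under median centring and spike-in scaling.

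RXR alpha, the shared partner of CAR, PXR, LXR, FXR and PPAR alpha, was read by 1 probe. Rxra measured 0.02, 0.16 and -0.34 in vehicle and -0.21, -0.20 and -0.41 in TBBC livers. Vehicle replicate 3 lay within the TBBC range and the other vehicle livers above it. The difference was -0.22 ± 0.16 (95% interval -0.60 to 0.16, adjusted p = 0.442), and it was 0.00 with spike-in scaling.

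Other nuclear receptors and the proteins that work with them gave 0 calls, where 3.08% of all features passed. Of 38 further nuclear receptors listed, 23 were tested and 0 passed, with a median of -0.05 (0.05 with median centring and 0.17 with spike-in scaling). Nr2f6, an orphan receptor of the COUP-TF family, differed by -0.17 ± 0.13 (adjusted p = 0.454) and was 0.05 with spike-in scaling. Rxrg, a second RXR, differed by 0.00 ± 0.15 (adjusted p = 0.999). Of 19 listed coregulators 13 were tested and 0 passed, with a median of -0.15 (0.07 with spike-in scaling). The corepressor Ncor1 differed by -0.06 ± 0.13 (adjusted p = 0.794) and was positive with median centring and spike-in scaling, and Prmt1, an arginine methyltransferase, differed by -0.15 ± 0.11 (adjusted p = 0.455) and was positive with spike-in scaling.

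Transcription factors of liver outside the nuclear receptor family changed in 2 of 19 tested cases, where 3.08% of all features passed. Ahr, the dioxin receptor, a chemical sensor of another protein family, measured -2.02, -1.99 and -1.83 in vehicle and -1.27, -0.82 and -0.60 in TBBC livers. It rose by 1.05 ± 0.19 (adjusted p = 0.0411). Stat5a, which relays growth hormone and prolactin signals, fell by 0.79 ± 0.12 on the log2 scale (adjusted p = 0.0303). The median of the 19 was -0.13, beside -0.06 for all features, and with spike-in scaling it was 0.09, beside 0.16. With any 1 array left out, 0 or 1 of them passed.

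The settings of the processing moved some receptor values more than others. Over 18 alternatives, Nr0b2 ranged from -2.23 to -1.51, Nr1h4 from -0.92 to -0.53 and Ppara from -1.02 to -0.45, each always negative. The filters on dim probes, every probe on its own, trend and robust, and the replicate block could not change a receptor's difference. The value table, the same intensity rescaled, gave nearly the same values. A constant sign over these settings is therefore no added evidence. Nr1i3 ranged from 0.03 to 0.35 and Nr5a2 from 0.15 to 0.45, always positive, and Nr3c1 from -0.35 to -0.02. Hnf4a, Rxra, Nr1i2 and Nr1h3 took both signs.

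**Figure D5:**
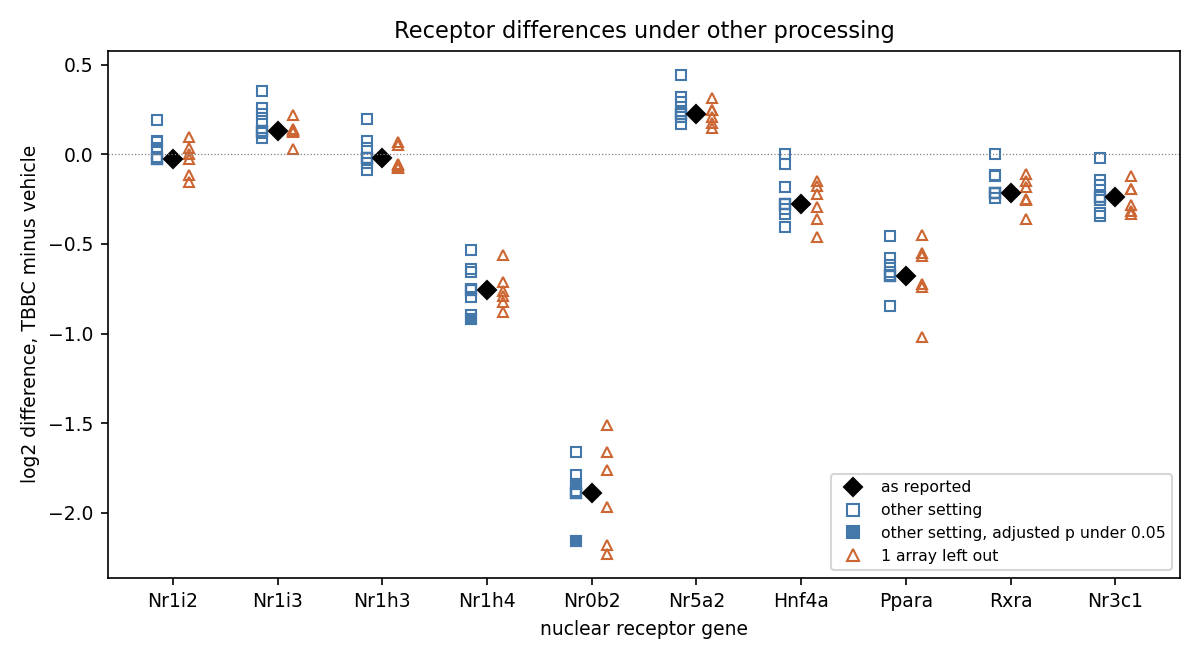
Log2 difference (TBBC minus vehicle) of each receptor gene as reported (black diamonds), under 11 other processing settings (the replicate block is not drawn; blue squares, filled where the adjusted p was under 0.05) and with each of the 6 arrays left out (orange triangles). Nr0b2, Nr1h4 and Ppara stay below 0 throughout, though several of the settings could not change a receptor's difference and repeat the reported value. The filled squares drawn belong to Nr0b2 (normexp and array weights) and Nr1h4 (normexp).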

How the data were processed

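The deposited files are scanner output of 6 arrays, with the authors' values given as linear spot intensity. Per the file headers, Agilent Feature Extraction 10.7.1.1 made them (10.7 per the submitters' processing notes); it corrects each spot for background and reports a processed intensity. The deposited value table, an alternative here, was that intensity times 1 constant per array (column medians 0.0972 to 0.108), linear and uncentred.

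The processed intensity was put on a log2 scale, and the 75th percentile of the array's 61537 non-control probes was subtracted. RefSeq accessions were matched to a gene table of assembly GRCr8 (28206 probes, 45.8%). The headers name build rn4 for the array, so probe coordinates are not given. Left out were 25 probes with an outlier flag, 0 of them of a receptor, and probes that were not well above background throughout either group, leaving 37222. The probe with the highest mean stood for a gene (29326 features, of which 11235 were genes).

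The test was limma 3.58.1 (R 4.3.3; lmFit and eBayes, two-sided, without covariates), Benjamini-Hochberg adjusted over all features. The 95% intervals are moderated and unadjusted. The fit was tested on simulated data. The receptors and gene lists (301 genes from textbook knowledge, 277 on the array) were chosen with earlier results of these data known. Named genes were all receptors, up to 4 genes per list past the threshold by size, or up to 2 with the highest mean signal where none passed, and the 3 genes nearest to the receptor with the largest difference. Uncalled marker genes are given by list. For 1 gene taken by this rule no values are reported here.

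Alternatives were quantile normalization, median centring, spike-in scaling, normexp (offset 50) on median spot signals with quantile normalization, the value table, no filter and a stricter filter on dim probes, the mean of a gene's probes, every probe on its own, array weights, a trended and robust eBayes, a replicate block, and each array left out.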

Additional observations from a re-analysis of the deposited data

How the results depend on the processing

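No receptor passed as reported, with the value table, under the scalings, filters and probe rules, with trend and robust, or with any array left out (0 in each). With normexp (run on median spot signals together with quantile normalization) 2 passed, with array weights 1, and with the replicate number as a block 1 (Nr0b2, adjusted p = 0.0343). Replicate numbers did not pair animals: deviations of same-numbered animals correlated at 0.0035, -0.0216 and 0.144, and not every animal correlated best with its own number. With that replicate block 211 features passed, and 1 FXR, 0 LRH-1, 0 HNF4 alpha and 0 PPAR alpha targets and 0 liver transcription factors. The slide could not be used as a block, since each slide held 1 group.

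Features past the threshold numbered 902 as reported, 1803 with normexp, 194 without a filter on dim probes and 120 to 358 with 1 array left out (120 without TBBC replicate 2, 131 without vehicle replicate 1). Risers made up 54.5% of calls as reported (492 higher, 410 lower), 70.9% with median centring (746 and 306) and 81.5% with spike-in scaling (574 and 130).

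With normexp 1 LXR target, 5 HNF4 alpha targets, 1 coregulator, 2 genes of the CAR complex and 4 liver transcription factors passed. Without the filter the counts were 14 CAR and PXR targets, 1 FXR, 0 LRH-1, 0 HNF4 alpha and 1 PPAR alpha target and 0 liver transcription factors. With spike-in scaling 1 HNF4 alpha target and 1 liver transcription factor passed, and with median centring 1 gene of the CAR complex. Trend and robust gave 6 HNF4 alpha targets, 1 gene of the CAR complex and 4 liver transcription factors, and array weights gave 5 HNF4 alpha targets and 4 liver transcription factors. With 1 array left out, 12 to 17 CAR and PXR targets passed (12 without TBBC replicate 2), 0 to 1 FXR, 0 to 2 LRH-1, 0 to 2 HNF4 alpha and 0 to 2 PPAR alpha targets, 0 to 1 genes of the CAR complex and 0 to 1 liver transcription factors. Of the named genes past the threshold, Abcc3, Cyp2b1 and Gstm3 passed in all 18 alternatives. The call was lost in 1 for Cyp2c24, in 2 for Epcam, in 4 for Fgf21 and Slc27a5, in 6 for Abhd8 and Pklr, in 7 for Acaa1b, Ahr and Cd36, in 8 for Ahsg, Ehhadh, Myorg and Sdc1, in 9 for Abcb11, Apoc2 and Stat5a, in 10 for Dio1 and in 11 for Pdgfrb. The cause of these moves was not tested.

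Values that turned their sign were all short of the threshold. Nr1i2 was 0.0695 with median centring, 0.194 with spike-in scaling, 0.0327 with normexp, 0.0775 as the mean of its probes, 0.0366 with array weights and -0.153 to 0.0979 with 1 array left out. Nr1h3 was 0.0734, 0.198 and 0.034 with median centring, spike-in scaling and normexp, and -0.0783 to 0.0688 with 1 array left out. Hnf4a was 0.00328 as the mean of its probes and Rxra 0.00319 with spike-in scaling. With spike-in scaling Apoe was 0.0818, Mt2A 0.181, Nr2f6 0.048, Ncor1 0.16 and Prmt1 0.0733. With median centring Mt2A was 0.0557 and Ncor1 0.0347. With normexp Apoe was 0.00149, Mt2A 0.0483 and Rxrg -0.0621. With array weights Mt2A was 0.0148 and Rxrg -0.00597, and with quantile normalization Rxrg was -0.0198. As the mean of their probes Mt1 was -0.0236 and Mt2A 0.0908. With 1 array left out Mt1 was -0.0131 to 0.118, Mt2A -0.113 to 0.0037, Rxrg -0.125 to 0.107 and Ncor1 -0.159 to 0.0193. The number of arrays, 3 per group, limits the precision of each receptor value to the intervals given.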
